A study of Mus musculus with 32 samples.

Results

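Leptin and 5 other genes best known from fat cells were read in mouse lung: Lep, Hcar1, Nat8l, Slc25a34, Dio2 and Ebf2. They are 6 of 26305 genes that carry an Ensembl identifier in the deposited table, and all 6 averaged at least 0.1 FPKM (fragments scaled to transcript length and to mapped fragments), a level that 2749 annotated genes reached. The 6 were chosen by name after their values in these same mice were known, so their differences between groups are given below as descriptions with no test. The name "white and brown adipocyte genes" comes from what the genes are known for. None of 9 defining adipocyte markers (Adipoq, Plin1, Fabp4, Cidec, Cfd, Pparg, Ucp1, Cidea and Prdm16) could be matched to an identifier of its own, so the name could not be checked against them.

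The lungs came from 16 wild-type male C57BL/6J mice purchased at 6 to 8 weeks of age, in 4 groups of 4 mice. The control mice were healthy and received neither dust nor drug. The WTCPM mice received World Trade Center particulate matter, dust collected at and around the site of the collapsed towers. The other 2 groups received WTCPM with rosoxacin, a quinolone antibacterial, at 5 mg/kg, or WTCPM with dexamethasone, a synthetic glucocorticoid, at 0.1 mg/kg, so no group received a drug without dust. Each mouse has 2 sequencing lanes, which were averaged, and n below counts mice. The labels give each mouse its own animal number.

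The read depth of the libraries is unknown, because the deposited values are FPKM. Summed FPKM per mouse ran from 704683 to 1329954, and averaged 1066174 ± 183095 (SD, n = 4) in the rosoxacin group against 770770 ± 31240 (SD, n = 4) in the WTCPM group. Genes with an Ensembl identifier hold 0.114% of all FPKM, and the rest lies in assembled loci without a gene name. Reads of a gene that were assigned to such a locus are not in the values below. Of 19 markers of lung epithelium and endothelium, 2 could be matched (Prox1 and Apold1), both detected in every mouse. Neither is particular to lung, so the tissue label could not be checked.

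White adipocytes store triglyceride and report the size of that store to the brain through the hormone leptin. Brown and beige adipocytes oxidise fat to make heat, a programme driven by noradrenaline through cyclic AMP and by thyroid hormone made active inside the cell. In the mouse chest, fat of both kinds lies outside the lung itself, around the heart, in the mediastinum and along the large vessels. Within the lung, lipid-storing fibroblasts share part of the lipid droplet machinery, and pericytes and other mesenchymal cells can express Ebf2.

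RefSeq promoter windows on build GRCm38.p6, from 250 bases before to 50 bases after the start of transcription, were found for 4 of the 6 genes. They are shown so that the letters that regulators of fat cells are known to bind can be read beside each gene. Nothing in the data bears on binding there. For Slc25a34 and Dio2 the RefSeq start lies upstream of the gene span given further on. Capitals mark every match to the motifs listed after the sequences.
Lep, chr6:29059971-29060270, plus strand: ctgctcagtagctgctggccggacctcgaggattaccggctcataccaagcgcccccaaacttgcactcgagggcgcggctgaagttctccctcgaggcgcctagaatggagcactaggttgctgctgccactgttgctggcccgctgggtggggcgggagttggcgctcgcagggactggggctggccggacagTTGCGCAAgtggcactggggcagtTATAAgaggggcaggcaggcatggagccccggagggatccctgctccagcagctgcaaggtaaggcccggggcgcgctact
Hcar1, chr5:123879954-123880253, minus strand: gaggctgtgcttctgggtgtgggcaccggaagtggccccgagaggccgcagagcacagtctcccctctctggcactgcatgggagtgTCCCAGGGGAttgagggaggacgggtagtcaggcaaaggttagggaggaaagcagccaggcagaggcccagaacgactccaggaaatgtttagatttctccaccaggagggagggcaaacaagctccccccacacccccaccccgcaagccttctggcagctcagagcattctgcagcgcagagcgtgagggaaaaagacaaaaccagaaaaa
Slc25a34, chr4:141623785-141624084, minus strand: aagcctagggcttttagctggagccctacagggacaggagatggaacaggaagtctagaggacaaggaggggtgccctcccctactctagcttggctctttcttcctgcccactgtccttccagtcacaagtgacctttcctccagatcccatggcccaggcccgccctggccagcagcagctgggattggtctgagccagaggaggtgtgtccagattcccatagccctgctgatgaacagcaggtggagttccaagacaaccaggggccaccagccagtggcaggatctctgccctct
Dio2, chr12:90738989-90739288, minus strand: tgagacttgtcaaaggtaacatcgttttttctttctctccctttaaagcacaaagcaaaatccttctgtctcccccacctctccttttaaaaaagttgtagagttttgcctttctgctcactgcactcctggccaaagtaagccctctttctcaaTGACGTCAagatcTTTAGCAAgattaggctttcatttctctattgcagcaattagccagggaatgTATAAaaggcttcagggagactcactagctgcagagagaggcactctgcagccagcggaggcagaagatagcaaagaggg

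Both strands were searched for the C/EBP motif TTGCNNAA, the cyclic AMP response element TGACGTCA, the EBF palindrome, the PPAR direct repeat and the glucocorticoid response element, and the given strand for the TATA box, TATAA. No capital run belongs to more than 1 motif. The Lep window holds a C/EBP match from 55 to 48 bases before the start and a TATA box 31 to 27 bases before it. The Hcar1 window holds an EBF palindrome from 163 to 154 bases before the start. The Dio2 window holds a cyclic AMP response element 95 to 88 bases before the start, a C/EBP match on the opposite strand 82 to 75 bases before it, and a TATA box 30 to 26 bases before it. In the Slc25a34 window none of these letters were found, and no window of the 4 held the PPAR repeat or the glucocorticoid element. Among 32851 promoter windows of the same length, 10.8% held the C/EBP motif, 1.79% the cyclic AMP element, 0.904% the EBF palindrome, 0.0396% the PPAR repeat, 0.0487% the glucocorticoid element and 17.5% the TATA box. Such a match is a description of the letters and not a binding site.

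Lep encodes leptin, the satiety hormone of white fat. The gene (ENSMUSG00000059201.12) lies at chr6:29060220-29073877 on mm10, plus strand, with 3 exons in its first transcript. Control mice 1 to 4 had 0.978, 0.105, 0.289 and 0.381 FPKM. In the WTCPM group, mouse 1 had 0.0941 FPKM in lane 1 and was listed at 0 in lane 2, and mice 2, 3 and 4 were listed at 0 in both lanes. Every control mouse was therefore higher than every WTCPM mouse, and the highest control mouse stood far from the lowest of its own group. Whether an exact 0 stands for few reads or for an estimate that was not made cannot be told apart here, nor can fewer cells that express a gene be told apart from less RNA per cell in any of the values below.

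In the rosoxacin group Lep was at 0.311, 0.0636, 0.141 and 0.190 FPKM in mice 1 to 4. In the dexamethasone group it was at 0.196, 0.0658, 0.173 and 0.0639 FPKM. Both drug groups lay wholly above the WTCPM mice in the mean of both lanes, and they overlapped the control mice from below. In lane 1 alone rosoxacin mouse 2 and dexamethasone mouse 4 were listed at 0, below WTCPM mouse 1. In lane 2 alone every WTCPM mouse was listed at 0 and every mouse of both drug groups was above 0. The separation was thus present in lane 2 and in the mean of both lanes, and absent in lane 1. The order of the group means was control (0.438 FPKM), rosoxacin (0.176 FPKM), dexamethasone (0.125 FPKM) and WTCPM, and of these steps only the last, from dexamethasone to WTCPM, exceeded the larger SD of its 2 groups.

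On the log2(FPKM + 0.1) scale, the mean of Lep in WTCPM minus control was -2.03 (SE 0.42). Only 0.0728% of the 2749 genes had a lower difference. Rosoxacin minus WTCPM was 1.25 (SE 0.42) and dexamethasone minus WTCPM was 0.98 (SE 0.42). These sizes depend on the pseudocount, because the WTCPM group is near 0: with 0.01 in place of 0.1 FPKM the 3 differences were -4.46, 3.40 and 2.96, and with 1 FPKM they were -0.47, 0.21 and 0.15. Their directions were the same under all 3 pseudocounts. Without control mouse 1 the first difference was -1.61.

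Hcar1 encodes a receptor for lactate that restrains lipolysis in adipocytes. It is a single-exon gene (ENSMUSG00000049241.5) at chr5:123876736-123880020, minus strand, 11237 bases from its family member Hcar2. Whether reads are shared between these relatives, which would make its level uncertain, is not known. Control mice 1 to 4 had 0.917, 0.261, 0.410 and 0.197 FPKM, and WTCPM mice had 0.0700, 0.137, 0.0953 and 0.0987 FPKM. As for Lep, every control mouse was above every WTCPM mouse and control mouse 1 was the highest of all 16.

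With rosoxacin, Hcar1 was at 0.220, 0.0634, 0.0667 and 0.220 FPKM, 2 mice above the whole WTCPM group and 2 mice below it. With dexamethasone it was at 0.293, 0.165, 0.140 and 0.181 FPKM, and all 4 mice were above the WTCPM group, the lowest of them only narrowly and not in lane 2, where that mouse read 0.0787 FPKM. The group means ran from control (0.447 ± 0.326 FPKM) through dexamethasone (0.195 ± 0.0675) and rosoxacin (0.142 ± 0.0893) to WTCPM (0.100 ± 0.0277; SD, n = 4 each), and no neighbours in that order differed beyond the larger SD.

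The log2 difference of Hcar1 was -1.29 (SE 0.35) for WTCPM minus control, 0.21 (SE 0.35) for rosoxacin minus WTCPM and 0.54 (SE 0.35) for dexamethasone minus WTCPM. The rosoxacin difference became -0.04 when the values were rescaled to TPM (the same total in every library) and -0.16 in lane 2 alone. It rose to 0.61 in lane 1 alone and to 0.55 with the number in the library names as a covariate. Without control mouse 1 the difference for dust was -0.93.

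**Figure D1:**
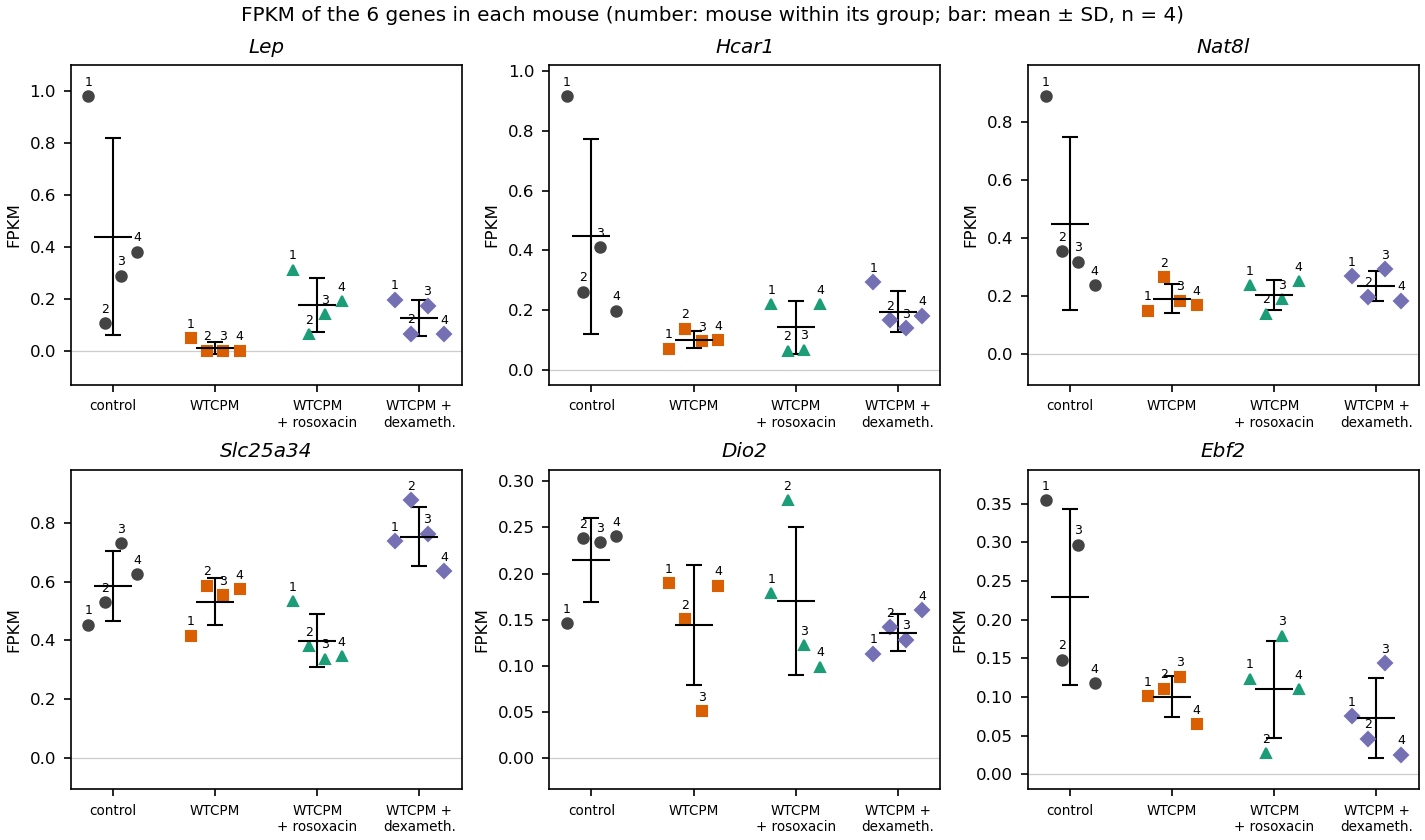
FPKM (vertical axis, linear, a separate scale per gene) of the 6 genes in each mouse of the 4 groups; points are mice, numbered within their group, and bars are the mean ± SD (n = 4 mice). Control mouse 1 is the highest of all mice for Lep (0.978 FPKM), Hcar1 (0.917), Nat8l (0.887) and Ebf2 (0.354), but not for Slc25a34 or Dio2; 3 WTCPM mice are listed at 0 for Lep.

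Nat8l makes N-acetylaspartate from aspartate and acetyl-CoA, in neurons and also in brown fat, where it feeds lipid turnover. The gene (ENSMUSG00000048142.9) lies at chr5:33995984-34005916, plus strand, with 3 exons. Control mice 1 to 4 had 0.887, 0.354, 0.317 and 0.236 FPKM, and WTCPM mice had 0.148, 0.263, 0.182 and 0.167 FPKM. Control mouse 1 was far above the rest, and the lowest control mouse lay below the highest WTCPM mouse, so the groups overlapped. Rosoxacin mice had 0.237, 0.138, 0.189 and 0.250 FPKM, and dexamethasone mice had 0.267, 0.197, 0.291 and 0.182 FPKM. Both drug groups overlapped the WTCPM group over most of its range.

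The log2 difference of Nat8l was -0.80 (SE 0.29) for WTCPM minus control, 0.06 (SE 0.29) for rosoxacin minus WTCPM and 0.21 (SE 0.29) for dexamethasone minus WTCPM. Without control mouse 1 the difference for dust was -0.48, and rescaling to TPM turned that for rosoxacin to -0.24. With library number as a covariate the rosoxacin difference was 0.46. No neighbours in the order of the group means (control, dexamethasone, rosoxacin, WTCPM) differed beyond the larger SD.

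Slc25a34 encodes a carrier of the inner mitochondrial membrane that is found in brown fat and whose cargo is poorly known. The gene (ENSMUSG00000040740.7) has 5 exons at chr4:141618824-141623821, minus strand, and had the highest mean of the 6, 0.568 FPKM over 16 mice. Control mice 1 to 4 had 0.454, 0.530, 0.730 and 0.625 FPKM and WTCPM mice 0.416, 0.586, 0.553 and 0.574 FPKM, in broad overlap. Dexamethasone mice had 0.738, 0.876, 0.764 and 0.636 FPKM, all above the WTCPM mice in the mean of both lanes but not in either lane alone. In lane 2 dexamethasone mouse 4 read 0.557 FPKM, below WTCPM mouse 2 at 0.651 FPKM. Rosoxacin mice had 0.533, 0.381, 0.338 and 0.347 FPKM, of which only mouse 1 was above the lowest WTCPM mouse.

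For Slc25a34 the dexamethasone group (0.753 ± 0.0988 FPKM) was therefore at the top and the rosoxacin group (0.400 ± 0.0909; SD, n = 4 each) at the bottom, each a step beyond the larger SD from its neighbour, with overlapping ranges. Its log2 difference was -0.11 (SE 0.19) for WTCPM minus control, 0.44 (SE 0.19) for dexamethasone minus WTCPM and -0.35 (SE 0.19) for rosoxacin minus WTCPM. The last moved to -0.73 on the TPM scale and to -0.15 with median-of-ratios scaling.

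Dio2 encodes the type 2 deiodinase, which turns thyroxine into the active hormone inside brown adipocytes and other cells. The gene (ENSMUSG00000007682.6) has 2 exons at chr12:90724552-90738438, minus strand. An exon overlaps the predicted gene Gm26512 on the other strand, which had its own mean of 0.00754 FPKM, and whether the counting used strand is not known. Control mice 1 to 4 had 0.146, 0.238, 0.234 and 0.240 FPKM, WTCPM mice 0.189, 0.151, 0.0506 and 0.187 FPKM. Mice 2, 3 and 4 of the control group were above all WTCPM mice, but control mouse 1, the highest for Lep, Hcar1 and Nat8l, was the lowest of its group here.

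Rosoxacin mice had 0.179, 0.279, 0.122 and 0.0992 FPKM of Dio2 and dexamethasone mice 0.113, 0.141, 0.128 and 0.160 FPKM. All groups overlapped, and no neighbours in the order control, rosoxacin, WTCPM, dexamethasone differed beyond the larger SD. The log2 differences were -0.40 (SE 0.26) for WTCPM minus control, 0.14 (SE 0.26) for rosoxacin minus WTCPM and -0.01 (SE 0.26) for dexamethasone minus WTCPM. Without WTCPM mouse 3, the lowest of all 16, the 3 differences were -0.18, -0.07 and -0.23. The rosoxacin difference was -0.12 on the TPM scale and 0.30 in lane 2 alone.

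Ebf2 encodes a transcription factor that marks brown and beige precursors and binds near thermogenic genes. The gene (ENSMUSG00000022053.13) has 17 exons at chr14:67233292-67430918, plus strand, and overlaps the predicted gene Gm10860 on the other strand, which had a mean of 0.00272 FPKM. Control mice 1 to 4 had 0.354, 0.149, 0.297 and 0.118 FPKM, and WTCPM mice had 0.101, 0.111, 0.127 and 0.0648 FPKM. Control mice 1 and 3 were well above all WTCPM mice and control mouse 2 slightly above them, while control mouse 4 lay among them. Rosoxacin mice had 0.124, 0.0274, 0.179 and 0.110 FPKM, and dexamethasone mice had 0.0754, 0.0462, 0.144 and 0.0257 FPKM, both in overlap with WTCPM.

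The log2 difference of Ebf2 was -0.66 (SE 0.32) for WTCPM minus control and was -0.48 without control mouse 1. Rosoxacin minus WTCPM was 0.02 (SE 0.32), which turned to -0.23 on the TPM scale, and dexamethasone minus WTCPM was -0.25 (SE 0.32). The rosoxacin difference was 0.41 in lane 1 alone and 0.35 with library number as a covariate. The step from control (0.230 ± 0.114 FPKM) to the next group, rosoxacin (0.110 ± 0.0627; SD, n = 4 each), exceeded the larger SD, with overlapping ranges.

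Set side by side, all 6 genes had a lower mean after dust than in control lungs, where 46.5% of the 2749 annotated genes did, and their median log2 difference was -0.73 against 0.03 for all genes. For Lep and Hcar1 the 4 WTCPM mice were all below the 4 control mice, 2 of 6 genes, and 1.16% of all genes had that pattern. Over all annotated genes, 0 of 2749 (0%) passed an adjusted p of 0.05 in limma in this comparison, and 141 had an unadjusted p under 0.05. The counts of the 6 describe genes picked with this comparison known, and nothing is read from them.

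The comparisons of each drug with WTCPM use the same WTCPM mice as the comparison of dust with control, so a low WTCPM value moves all 3. With rosoxacin, 5 of 6 genes had a higher mean than in WTCPM mice, against 36.3% of all genes, and the median of the 6 was 0.10 against -0.16. Relative to that shift of all genes, Lep stood at 1.41, Hcar1 at 0.37, Dio2 at 0.30, Nat8l at 0.22, Ebf2 at 0.18 and Slc25a34 at -0.19. On the TPM scale, where the median of all genes was -0.44, the differences of Hcar1, Nat8l, Dio2 and Ebf2 turned negative and Lep stayed positive at 1.15. Lep was the 1 gene of 6 whose 4 rosoxacin mice were all above the WTCPM mice, a pattern of 2.18% of all genes. This separation of Lep was absent in lane 1 alone. The counts of the 6 describe genes picked with this comparison known as well, and nothing is read from them. Over all annotated genes, 15 (0.546%) passed the adjusted threshold.

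With dexamethasone, 4 of 6 genes had a higher mean than in WTCPM mice (Lep, Hcar1, Nat8l and Slc25a34), against 50.5% of all genes, and the median of the 6 was 0.32 against 0.00. For Lep, Hcar1 and Slc25a34 the 4 dexamethasone mice were all above the WTCPM mice, 3 of 6 genes, a pattern of 1.75% of all genes. None of the 3 separations held in both lanes: Lep lacked it in lane 1, Hcar1 in lane 2 and Slc25a34 in either lane. These counts too describe genes picked with the comparison known, and nothing is read from them. Over all annotated genes, 0 of 2749 (0%) passed the adjusted threshold in limma and 148 had an unadjusted p under 0.05.

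**Figure D2:**
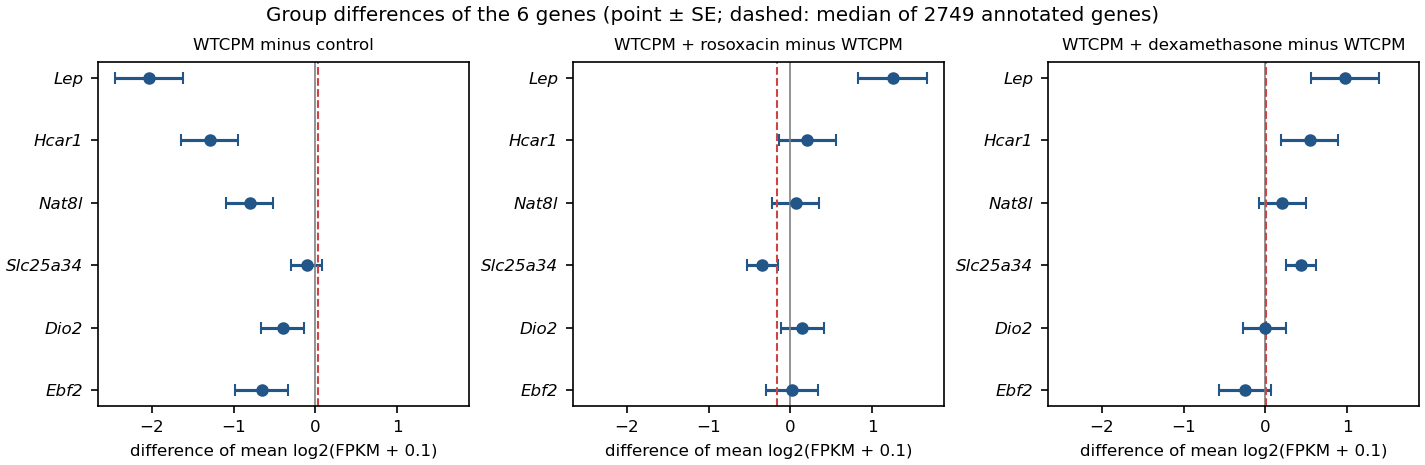
Differences of group means on the log2(FPKM + 0.1) scale (horizontal axis) for the 6 genes in 3 comparisons; points are the limma estimates, bars are ± 1 SE, and the dashed line is the median of 2749 annotated genes. After dust all 6 points lie left of 0, from -0.11 for Slc25a34 to -2.03 for Lep; with rosoxacin Slc25a34 lies left of 0 at -0.35 and Lep far right at 1.25.

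Lep, Hcar1 and Nat8l varied together over the 16 mice, and where Slc25a34 stood depended on 1 mouse. Ebf2 followed Nat8l about as closely as Lep followed Nat8l, but it followed Lep and Hcar1 less closely. On the log2 scale, Hcar1 and Nat8l had the highest Pearson r of the 15 pairs, 0.91 (Spearman 0.82, 16 mice). It was 0.80 without control mouse 1, 0.83 after subtracting each group's mean, 0.71 over the 12 dust-exposed mice, and 0.76 without the 2 mice farthest from the median of Hcar1. Lep correlated with Hcar1 at 0.78 (Spearman 0.73), which was 0.61 without control mouse 1, and with Nat8l at 0.74 (Spearman 0.63), which was 0.50 without it. These are descriptions of values that share libraries and group differences, and no p is given because the genes were chosen with those differences known.

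Ebf2 followed Hcar1 mainly through the control mice: r was 0.62 (Spearman 0.37) over all mice and -0.09 over the 12 dust-exposed mice. With Nat8l, the r of Ebf2 was 0.75 (Spearman 0.65) over all mice and 0.62 without control mouse 1. Over the 12 dust-exposed mice Ebf2 had r of 0.45 with Nat8l, and Lep had 0.50 with Nat8l. Slc25a34 had r from -0.11 to 0.21 with the other 5 genes over all mice, but without control mouse 1 its r was 0.50 with Hcar1 and 0.39 with Nat8l, and over the 12 dust-exposed mice 0.47 and 0.40. Dio2 had r from -0.07 to 0.16 over all mice and at most 0.25, with Lep, without control mouse 1. After subtracting group means, Dio2 and Ebf2 had r of -0.62. The genes linked to brown fat did not form one block over all mice: of the other 5 genes Nat8l followed Hcar1 most closely, and Dio2 followed none of them.

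**Figure D3:**
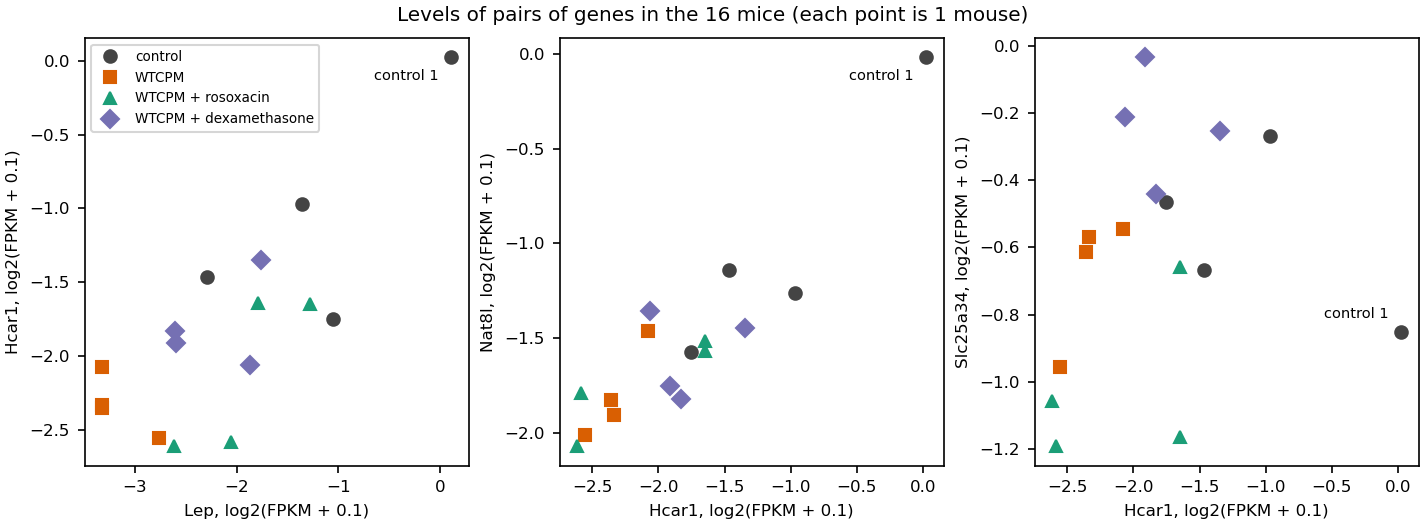
Levels in the 16 mice on the log2(FPKM + 0.1) scale (both axes) for Lep against Hcar1, Hcar1 against Nat8l and Hcar1 against Slc25a34; each point is 1 mouse and shapes are groups. Control mouse 1 lies at the upper right of the first 2 panels (r = 0.78 and 0.91) and alone at the right of the last (r = 0.21, and 0.50 without it).

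**Figure D4:**
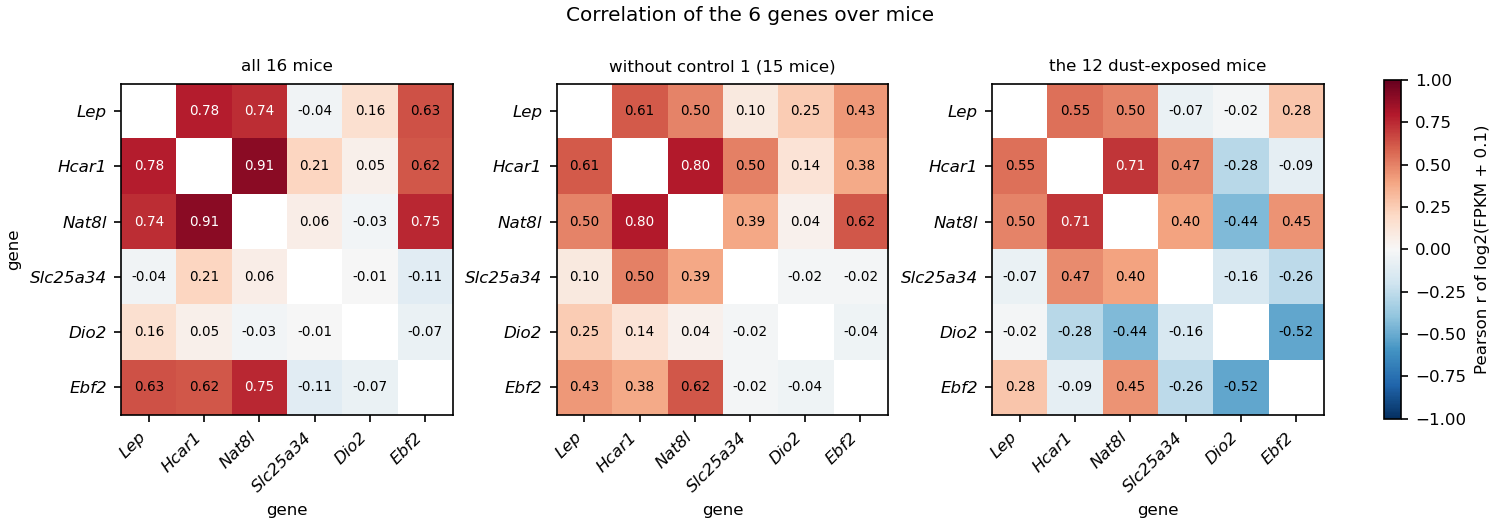
Pearson r of log2(FPKM + 0.1) for each pair of the 6 genes over all 16 mice, over 15 mice without control mouse 1, and over the 12 dust-exposed mice; colour and the printed value both give r. Lep, Hcar1 and Nat8l correlate positively in all 3 panels, from 0.50 to 0.91, and Dio2 with Ebf2 reaches -0.52 in the last.

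Control mouse 1 was the highest of 16 mice for Lep, Hcar1, Nat8l and Ebf2, 12th for Slc25a34 and 10th for Dio2. It was the highest mouse for 314 of the 2749 annotated genes (11.4%). Control mouse 3 was among the 4 highest mice for all 6 genes, and no WTCPM mouse was among the 4 highest for any. The library names carry a number whose meaning is not given. It was 23 for control mouse 1, ran from 7 to 23 in the control group and from 5 to 17 in the WTCPM group, and from 1 to 4 in the rosoxacin group.

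Both lanes of each animal come under 1 library number, and the spread between them shows how exact each value is. For Lep, Hcar1 and Nat8l the lanes correlated over mice at 0.94, 0.93 and 0.89. The SD that lanes leave in a mean of 2 (0.0420, 0.0488 and 0.0425 FPKM) was below the SD between mice of a group, which was 0.199, 0.173 and 0.155 FPKM, and 0.0894, 0.0762 and 0.0532 FPKM without control mouse 1. For Nat8l these are close. For Slc25a34 the lanes correlated at 0.40, and the SD they leave in a mean of 2, 0.101 FPKM, was about that between mice of a group, 0.0981 FPKM. Ebf2, at 0.48, had 0.0534 FPKM against 0.0712 FPKM, and Dio2, at 0.66, had 0.0268 FPKM against 0.0573 FPKM. For Lep, 3 mice had 1 lane at 0 and 3 mice both lanes. For Ebf2, 5 mice had 1 lane at 0. The dexamethasone mouse with the highest Slc25a34 (mouse 2) read 0.673 FPKM in lane 1 and 1.08 FPKM in lane 2.

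**Figure D5:**
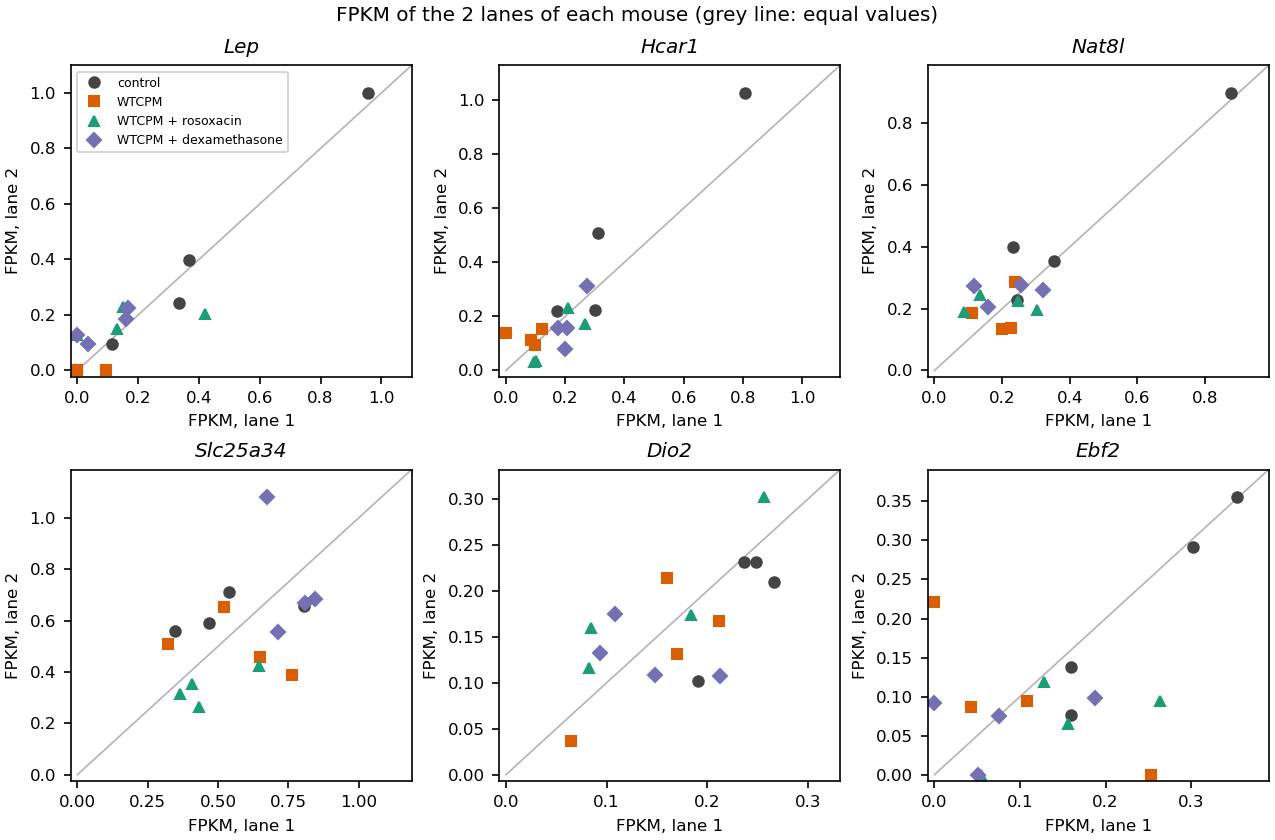
FPKM of the 2 lanes of each mouse (horizontal axis lane 1, vertical axis lane 2, linear) for the 6 genes; each point is 1 mouse, shapes are groups and the grey line marks equal values. Points of Lep, Hcar1 and Nat8l lie near the line (r = 0.94, 0.93 and 0.89), and those of Slc25a34 and Ebf2 scatter widely (r = 0.40 and 0.48).

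Beyond the 6 genes, 155 further genes of white fat identity, adipocyte differentiation, lipolysis, lipogenesis, thermogenesis, leptin signalling and thyroid hormone conversion were looked up. An identifier of their own was found for 24, and 4 reached a mean of 0.1 FPKM. Of these 4, 1 passed the adjusted threshold, for rosoxacin: Itln1, which encodes intelectin, a lectin of visceral fat that goblet and other mucosal cells also secrete. In the 4 rosoxacin mice Itln1 ranged from 0.157 to 0.633 FPKM, against a highest WTCPM value of 0.0584 FPKM, with the other 3 WTCPM mice and all control mice listed at 0. Its log2 difference was 2.08 (SE 0.44, limma adjusted p = 0.0401), among 3 genes (0.109%) that passed in the higher direction. It reached the 0.1 FPKM filter only through the rosoxacin mice, which averaged 0.411 FPKM, so it could be tested only because it was high there. The call rested on single mice: it was lost without any 1 of the 4 WTCPM mice, without rosoxacin mouse 1, 3 or 4, and without control mouse 2 or 3. It was also lost in lane 2 alone, with no filter on low values and with a pseudocount of 0.01 FPKM, and over all settings that kept the gene its adjusted p ran from 0.0211 to 0.126.

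The other 3 did not pass in any of the 3 comparisons. Ffar2, a short-chain fatty acid receptor of adipocytes and neutrophils, averaged 0.364 ± 0.0648 FPKM in controls, 0.368 ± 0.176 after dust alone, 0.197 ± 0.0941 with rosoxacin and 0.419 ± 0.152 with dexamethasone (SD, n = 4 each). Its log2 difference for rosoxacin was -0.62 (SE 0.32, limma adjusted p = 0.350). Tmem26, a surface marker of beige adipocytes, averaged 0.315, 0.317, 0.336 and 0.376 FPKM in the same order of groups. Pomc, the precursor of melanocortins that act downstream of leptin, ranged from 0 to 0.355 FPKM with mice at 0 in 3 of the 4 groups. The median log2 difference of the 4 genes was 0.09 for dust, -0.22 for rosoxacin and 0.19 for dexamethasone.

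Levels below 0.1 FPKM were left untested. Of the 24 genes, 4 were listed at 0 in all 16 mice (Hoxc10, Fgf21, Cited1 and Npy), and among the 20 others control mouse 1 was the highest mouse for 5. These were Ebf3, an Ebf2 relative (0.178 FPKM, next highest mouse 0.0850), the monoacylglycerol acyltransferases Mogat1 (0.218, next 0.124) and Mogat2 (0.236, next 0.109), the lipolysis-restraining adrenergic receptor Adra2a (0.141, next 0.126) and the brown fat marker Lhx8 (0.0615, next 0.0234). The summed level of the 9 thermogenesis genes with an identifier was 0.514 to 0.571 FPKM in controls, 0.358 to 0.480 after dust alone, 0.327 to 0.508 with rosoxacin and 0.389 to 0.506 with dexamethasone. The lowest control mouse was just above the highest of the others, and the listed genes did not share this: Tmem26 averaged 0.315 FPKM in control and 0.317 FPKM in WTCPM mice, and Gpr3, a receptor that raises cyclic AMP, averaged 0.0391 FPKM in control and 0.0537 FPKM in WTCPM mice. Otop1, a proton channel of brown fat, was listed at 0 in 1 control mouse and reached 0.207 FPKM in the others, with 1 rosoxacin mouse at 0.0159 FPKM and all WTCPM and dexamethasone mice at 0.

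Markers of tissues that adjoin the lung also differed between groups, and some were highest in control mouse 1. Of 19 thymus and lymph node markers 4 could be matched, with Foxn1 at 0 in all mice, and their summed level was 0.0170 to 0.364 FPKM in controls, 0.0012 to 0.0117 after dust alone, 0 to 0.0035 with rosoxacin and 0 to 0.0612 with dexamethasone. Control mouse 1 was the highest, at 0.364 FPKM, mostly from Glycam1 of lymph node vessels (0.244 FPKM) and the thymic protease Prss16 (0.119 FPKM). Psmb11 went the other way, at a mean of 0.00283 FPKM in control and 0.00417 FPKM in WTCPM mice. Of 22 markers of liver, oesophagus, cartilage and nerve, 13 could be matched, with Matn1 and Th among those at 0, and the sum was 0.884 to 1.38 FPKM in controls, 0.331 to 0.515 after dust alone, 0.267 to 1.03 with rosoxacin and 0.512 to 0.754 with dexamethasone. Cnmd of cartilage was at 0.163 to 0.229 FPKM in control mice and at most 0.153 FPKM in any other mouse. Acan, Col2a1 and Sox9 also had their highest group mean in controls, though Acan was listed at 0 in control mouse 1. The Col2a1 mean rested on control mouse 4 (0.237 FPKM, next highest mouse 0.0303). Sox9 averaged 0.126 ± 0.0951 FPKM in controls and 0.117 ± 0.0384 FPKM with rosoxacin (SD, n = 4 each). Other cartilage markers went the other way: Comp was listed at 0 in all control mice and averaged 0.0234 FPKM with dexamethasone. Matn3 averaged 0.00431 FPKM in control and 0.0192 FPKM in WTCPM mice.

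Of 33 muscle markers 7 could be matched, with Nppb, Myl2 and Myod1 at 0, and the sum was 0.0569 to 0.264 FPKM in controls, 0 to 0.125 after dust alone, 0 to 0.104 with rosoxacin and 0 to 0.444 with dexamethasone. None of 9 mesothelium markers was matched, and of 17 markers of lipid-storing fibroblasts and other lung mesenchyme only Ebf2 itself was. The lung list, Prox1 and Apold1, summed to 0.766 to 1.39 FPKM in controls, 0.903 to 1.36 after dust alone, 1.44 to 2.05 with rosoxacin and 1.18 to 1.37 with dexamethasone. Apold1, an early response gene of vascular endothelium, averaged 0.603 ± 0.158 FPKM in WTCPM and 1.29 ± 0.223 FPKM in rosoxacin mice (SD, n = 4 each), a log2 difference of 1.00 (SE 0.18, limma adjusted p = 0.0176). That call held under 19 of 28 settings, with limma adjusted p from 0.00606 to 0.114. It was lost without WTCPM mouse 2 or 4, without rosoxacin mouse 1, in either lane alone and on the TPM scale, where the difference was 0.60. The call was also lost with no filter, with quantile normalisation and with library number as a covariate. The part of these other tissues in the values of Lep, Hcar1, Nat8l, Dio2, Slc25a34 and Ebf2 was not tested.

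The named genes whose levels followed each of the 6 most closely were taken by Pearson r over the 16 mice, leaving out the 6 themselves, predicted genes and antigen receptor segments. For Lep they were Tmem179 (0.80), Col6a6 (0.76) and Foxo6 (0.73), for Hcar1 Tmem179 (0.84), Kcnn1 (0.83) and Col6a6 (0.82), and for Nat8l Kcnn1 (0.87), Col6a5 (0.78) and Col6a6 (0.78). Tmem179 and Col6a6 recur in these lists. The highest mouse of each of these genes other than Foxo6 was control mouse 1, and without it Tmem179 had r of 0.65 with Lep, Kcnn1 0.64 with Nat8l, and Col6a5 -0.05 with Nat8l. For Ebf2 they were Marc1 (0.73), Tmem179 (0.73) and Arsi (0.66).

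Tmem179 averaged 0.445 ± 0.331 FPKM in control and 0.0840 ± 0.0438 in WTCPM mice, and Marc1 averaged 0.295 ± 0.248 and 0.0510 ± 0.0631 FPKM (SD, n = 4 each). With rosoxacin and dexamethasone Tmem179 averaged 0.108 and 0.0687 FPKM, and Marc1 0.0430 and 0.0251 FPKM. Tmem179, Marc1, Col6a6 and Ebf2 itself reached the 0.1 FPKM filter only through the control mice. A high control level among these genes was thus in part set by the filter. For Slc25a34 the closest genes were Cers3 (0.87, and 0.87 without control mouse 1), Trmt9b (0.77) and Rpl31-ps1 (0.77), all highest in a dexamethasone mouse, and of these Rpl31-ps1 is a pseudogene whose level is uncertain because its parent gene can share reads. For Dio2 they were Rtl1 (0.68), Lrrn2 (0.66) and Olfr543 (0.62). The 99th percentile of r over all 2748 other genes was 0.56 for Lep, 0.67 for Hcar1, 0.71 for Nat8l, 0.72 for Slc25a34, 0.54 for Dio2 and 0.59 for Ebf2, so each list is the upper tail of a wide distribution. The genes near Slc25a34 and near Dio2 were different from those near Lep, Hcar1 and Nat8l.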

How the data were processed

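RNA of 16 mouse lungs was sequenced in 2 lanes per mouse, listed as 32 samples, with 1 library number per mouse. The authors deposited FPKM for each transcript. The submitters' processing notes name StringTie 2.1.5, HISAT2 2.2.1 and HISAT, build mm10, R 4.0.4, SAMtools 1.12 and FastQC. For their order, settings, annotation, use of strand and read counts, nothing was given in the sources used here. FPKM were summed per Ensembl gene and averaged over lanes on the FPKM scale. Symbols and positions came from GENCODE M21, and all 6 identifiers matched with their version.

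limma 3.58.1 (lmFit, contrasts, eBayes with trend) in R 4.3.3 was run on log2(FPKM + 0.1) over the 2749 annotated genes averaging at least 0.1 FPKM, all groups in 1 fit, with Benjamini-Hochberg adjustment at 0.05 and 3 comparisons, and was tested on simulated data. This scale understates changes of low genes. The 6 genes and the gene lists were chosen with earlier results of these data known. Named genes were the 6, listed genes that passed (otherwise the 2 highest tested genes per list), and for each of the 6 the 3 named genes with the highest Pearson r, leaving out the 6, predicted genes and antigen receptor segments. Replicate numbers name mice, and the labels name no pairs. Motifs were searched in RefSeq promoters. Alternatives were other pseudocounts, filters, scalings, single lanes, no trend, library number as a covariate, a replicate block and each mouse left out. Figures were drawn with matplotlib 3.10.9.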

Additional observations from a re-analysis of the deposited data

Results flagged for a closer look

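Of 24 sets of 4 mice (6 genes in 4 groups), 2 held a mouse whose gap to its nearest neighbour was a larger share of the group's range than Dixon's 95% critical value for 4 samples, and chance alone gives such a gap in about 1 of 20 sets. Lep in WTCPM mouse 1 was at 0.0471 FPKM, where the other 3 WTCPM mice were listed at 0, and this value came from 1 lane. With the other 3 tied at 0, any value above 0 meets the criterion, so the rate of 1 in 20 does not apply to it. Dio2 in control mouse 1 was at 0.146 FPKM, below the other 3 control mice, in the mouse that was highest for Lep, Hcar1, Nat8l and Ebf2.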

How the results depend on the processing

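The number of genes called for WTCPM minus control was 0. It was 1 with a pseudocount of 1 FPKM, in lane 1 alone, without the trend and with the replicate block, 2 with a pseudocount of 0.01 FPKM, with no filter and on the TPM scale, and 0 to 1 with single mice left out. For dexamethasone minus WTCPM it was 0, and 1 with a pseudocount of 1 FPKM or without the trend. For rosoxacin minus WTCPM it was 15 (3 higher, 12 lower), 23 with a filter of 0.5 FPKM, 5 with no filter, 6 with quantile normalisation, 260 on the TPM scale (3 higher, 257 lower), 2 in lane 1 alone and 3 with library number as a covariate. With median-of-ratios scaling it was 16, of which 11 were higher and 5 lower. With single mice left out it ran from 2 (without WTCPM mouse 4) to 24 (without control mouse 1), with 4 without WTCPM mouse 2, 5 without rosoxacin mouse 1, 9 without WTCPM mouse 3 and 10 without rosoxacin mouse 3. The cause was not tested.

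The call of Itln1 with rosoxacin, 1 listed gene, became 0 with a pseudocount of 0.01 FPKM, no filter, quantile normalisation, lane 2 alone, library number as a covariate or the replicate block, and 0 to 1 with single mice left out. It was also 0 with a filter of 0.5 FPKM and in lane 1 alone, where the gene was below the filter. In the replicate block, mouse number was the block. Within the 3 comparisons, the deviations of same-numbered mice correlated at r from -0.16 to 0.05. Among mice of all other groups, the closest carried the same number for 7 of 16 mice, a count not compared with chance. These values do not settle whether the numbers pair the mice, and the labels name no pairs.

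Of 489 recomputed differences of the 6 genes, 201 could not change or did not, because the setting leaves the estimate as it is. Of the other 288, 13 moved by more than 1 SD between mice and 28 changed sign. The sign changes lay in small differences: those of Dio2, Ebf2, Hcar1 and Nat8l for rosoxacin, Dio2 and Nat8l for dexamethasone and Slc25a34 for dust. With a filter of 0.5 FPKM only Slc25a34 of the 6 was kept. Lep kept its direction in all 3 comparisons under every setting run that kept the gene. Read depth is unknown, so no limit for a value of 0 can be given.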
